A study of Mus musculus with 2 samples.

Results

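The genes described here encode integrin subunits and the proteins that tie integrins to the actin cytoskeleton at focal adhesions. A list of 41 genes was used, 38 of them were measured, and the expression table as a whole held 18193 named genes. A gene was measured where the array annotation gave at least 1 probe set to it alone. Itga11, Fermt1 and Ptk2 were not analysed here. The measured genes were covered by 96 probe sets, and each gene is represented by its brightest probe set.

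Primary mouse embryonic fibroblasts (MEFs) were derived from whole C57BL/6 embryos at embryonic day 13.5 and used as young cells at passage 2. Both groups were transfected with a GapmeR, an LNA oligonucleotide that directs RNase H to a chosen RNA. The cells received GapmeR AK156230, against the lncRNA AK156230, or GapmeR Control, a non-targeting scramble. There was 1 array per condition and a single GapmeR against the lncRNA, so no difference below has a replicate check, and no p-value is given. The values are MAS5 signals, which summarise the brightness of all probes of a probe set on a linear scale. The median signal over all probe sets was 54.80 on the control array and 50.95 on the GapmeR AK156230 array. The lncRNA itself had no annotated probe set here, which leaves its knockdown unchecked on these arrays. All 15 fibroblast markers examined reached the median signal of the array on at least 1 array, as did 12319 of 18193 named genes. All 7 smooth muscle markers and 8 of 12 leukocyte markers did too, so this does not set fibroblasts apart.

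Integrins are receptors of the extracellular matrix built from an alpha and a beta subunit. The alpha subunit largely sets which ligand is bound, and the short tail of the beta subunit recruits talin and kindlin inside the cell. Around these tails a plaque assembles that holds the ILK-PINCH-parvin complex, the kinases FAK and Src, the scaffolds paxillin and p130Cas, and the actin-binding proteins vinculin, alpha-actinin and filamin. Fibroblasts use this machinery to spread, to pull on collagen and fibronectin and to sense stiffness.

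Most integrin and focal adhesion genes had similar signals on both arrays. Of 38 measured genes, 35 lay within 2-fold, 1 was at least 2-fold higher and 2 at least 2-fold lower after GapmeR AK156230. Over all named genes, 1.59% were higher and 3.85% were lower at this threshold, so the counts among these genes were near those of the array as a whole. The gene that was higher was Itgb4, and the genes that were lower were Itgb3 and Itgb8. Of the 38 genes, 34 were bright, which here means at or above the median signal on the brighter array. Among these 34, Itgb3 was the single gene past 2-fold, 0 being higher and 1 lower, against 1.90% and 4.92% of bright named genes. At 1.5-fold, 8 genes were lower and 3 were higher, against 9.69% and 5.48% of all named genes. The 8 lower genes made up 21.1% of those measured. They were Itgb3, Itgb8, Itgb5, Itga1, Itga7, Itga8, Tln2 and Parva, and the 3 higher genes were Itgb4, Bcar1 and Lims2. Among the 34 bright genes 7 were lower and 2 higher at 1.5-fold, against 10.7% and 6.19% of bright named genes. Of the lower ones, Itgb3, Itga1 and Itga7 reached the median on the control array alone. The RNA came from whole cultures, in which fewer cells that carry a transcript and less of it per cell cannot be told apart.

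The integrin subunits had a wider range of log2 ratios than the plaque genes, but the ends of that range were dim genes. All named genes had a median log2 ratio (GapmeR AK156230 over GapmeR Control) of -0.074. The 18 integrin subunits had a median of -0.22, from -1.42 to 1.35, and the 20 adaptor, kinase and actin-linking genes had a median of -0.028, from -0.88 to 0.70. All 20 of the latter were bright, against 14 of the 18 integrin subunits. Those 14 ran from -1.21 for Itgb3 to 0.46 for Itga6. Relative to the median of all genes these medians were -0.14 and 0.046, but where the probe sets of each gene were averaged, the median of the integrin subunits lay 0.037 above that of all genes. Of the integrin subunits, 6 of 18 were lower at 1.5-fold, and of the plaque genes 2 of 20. The spread between bright probe sets of the same gene, taken over 5113 genes, had an SD of 0.28 on the log2 scale for a single probe set. Log2 ratios closer to 0 than this are within that spread.

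**Figure D1:**
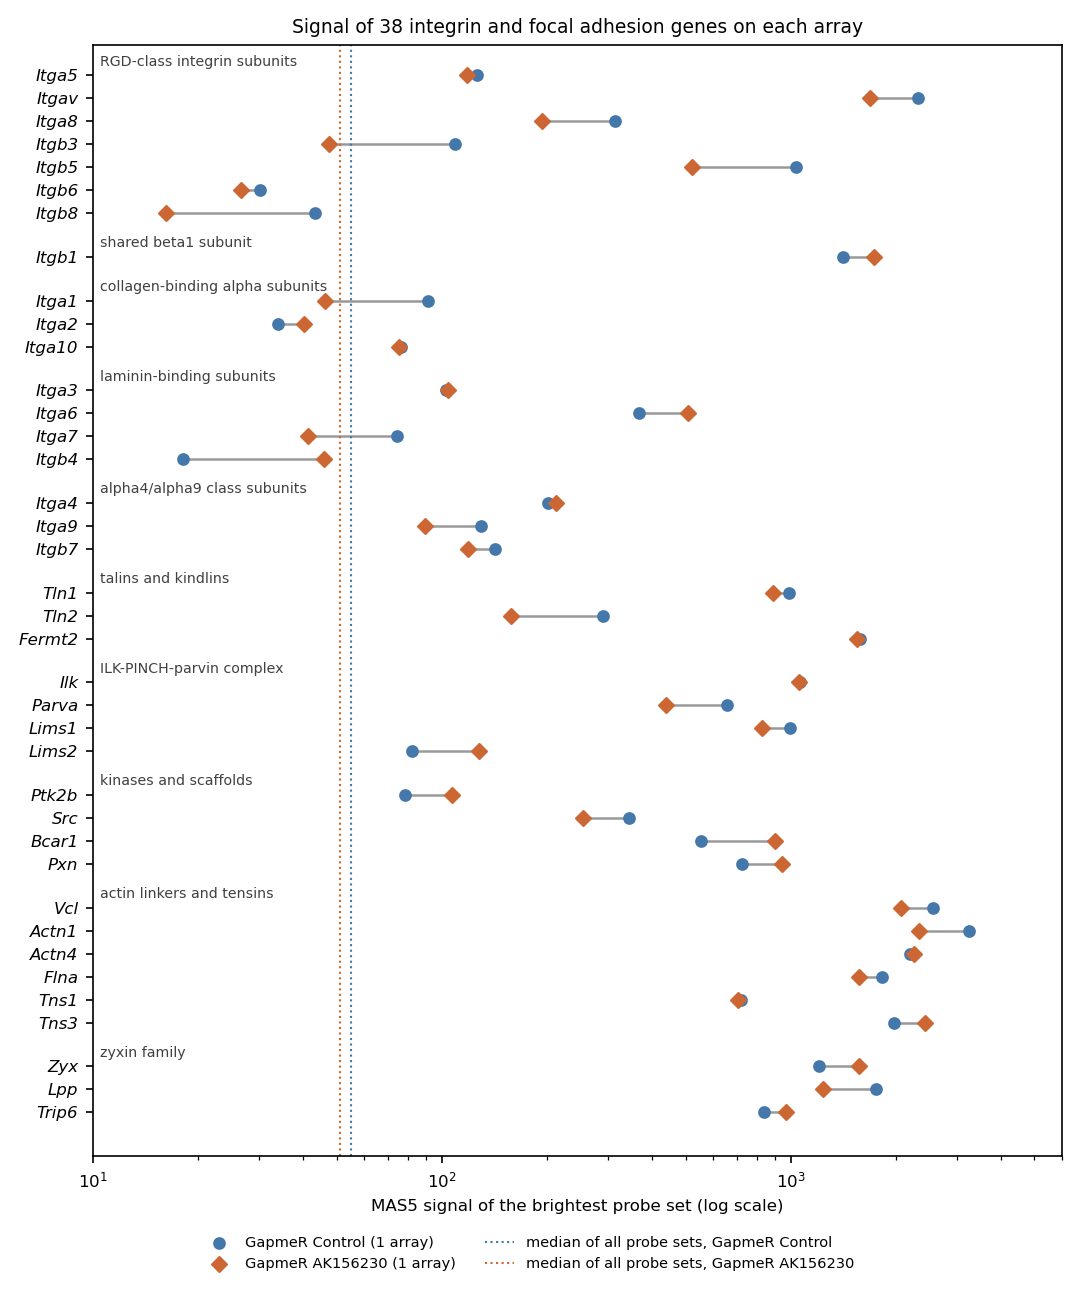
MAS5 signal of the brightest probe set of each of the 38 genes on a log scale, with a circle for GapmeR Control, a diamond for GapmeR AK156230 and dotted lines at the median signal of each array. Itgb5 spans 1038.77 to 522.40 and Itgb3 109.42 to 47.39, while Ilk, Fermt2 and Actn4 have nearly coinciding points.

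The subunits of the RGD class bind fibronectin, vitronectin and latent TGF-beta through the tripeptide that gives the class its name. All 7 had log2 ratios below 0, from -1.42 to -0.094, with a median of -0.69. Most genes of the array lay below 0 as well, 10700 of 18193 named genes. Itga5 and Itgb6 were above 0 under some of the alternatives tried, at up to 0.17 and 0.023. Itgb5 encodes a partner of the alphav subunit that binds vitronectin and lies on chromosome 16 of GRCm38 from 33829665 to 33949338. Its signal of 1038.77 in the control cells compared with 522.40 after GapmeR AK156230, 1.99-fold lower. The 4 probe sets of Itgb5 were all bright and all lower, with log2 ratios from -1.10 to -0.85, and 2 of them were past 2-fold. Itgb3, the other vitronectin receptor chain, lies on chromosome 11 from 104608000 to 104670476. The control array gave 109.42 and the GapmeR AK156230 array 47.39, 2.31-fold lower, which took it from above to below the median of the array. A second, dim probe set of Itgb3 had a log2 ratio of -0.046, and with the mean of its probe sets Itgb3 was at -0.63. Itgb8, which activates latent TGF-beta together with alphav, had dim signals of 43.42 and 16.18, a log2 ratio of -1.42. With an offset of 24.3 added to every signal, Itgb3 and Itgb8 were within 2-fold, at -0.90 and -0.74. Itgb6, an epithelial partner of alphav, was under the median on both arrays (30.11 and 26.54).

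None of the 3 alpha chains of this class was past 2-fold. Itgav, the common partner of the beta chains above, had signals of 2314.68 and 1692.29, 1.37-fold lower, and its other bright probe set had a log2 ratio of -0.38. Its dim probe sets ran from -0.086 to 0.11, and the mean of all its probe sets was -0.15. Itga8, which pairs with Itgb1 and binds nephronectin, had signals of 313.52 and 194.33, 1.61-fold lower, and -0.65 at its second probe set. Itga5, the alpha chain of the classical fibronectin receptor, had signals of 126.13 and 118.20, a log2 ratio of -0.094, and its 3 dim probe sets went both ways.

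Itgb1 went the other way from Itgb5 and Itgb3. It encodes the beta chain shared by the collagen, laminin and most fibronectin receptors, and lies on chromosome 8 from 128685654 to 128733579. The signal of Itgb1 was 1411.03 in control cells and 1730.78 in GapmeR AK156230 cells, 1.23-fold higher. The 3 bright probe sets of Itgb1 had log2 ratios from 0.25 to 0.29. The log2 ratio of Itgb1 was 1.29 above that of Itgb5, a difference that stayed between 1.21 and 1.39 over the alternatives tried. Against Itgb3 the difference was at least 0.82 in each alternative tried. Scaling of a whole array cannot change such a difference between genes.

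Promoter sequence was available from RefSeq for 29 of the 38 genes, and not for Itgb3. The 250 bases before the start of Itgb1, Itgb5 and Itgb8 are shown because Itgb1 had a log2 ratio above 0 and the others below (GRCm38.p6, gene strand, 5′ to 3′). The ratio of Itgb1, 0.29, was near the spread of 0.28 between probe sets, and Itgb8 was dim. They lie at chr8:128685404-128685653 on the plus strand, chr16:33829415-33829664 on the plus strand and chr12:119238277-119238526 on the minus strand. Capitals mark the GC box GGGCGG, the core of Sp1 sites, or its reverse complement CCGCCC.
Itgb1: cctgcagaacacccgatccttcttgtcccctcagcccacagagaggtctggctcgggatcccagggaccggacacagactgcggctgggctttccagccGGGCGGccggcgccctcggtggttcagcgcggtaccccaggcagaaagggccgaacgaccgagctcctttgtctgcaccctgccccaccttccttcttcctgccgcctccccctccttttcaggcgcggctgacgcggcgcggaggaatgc
Itgb5: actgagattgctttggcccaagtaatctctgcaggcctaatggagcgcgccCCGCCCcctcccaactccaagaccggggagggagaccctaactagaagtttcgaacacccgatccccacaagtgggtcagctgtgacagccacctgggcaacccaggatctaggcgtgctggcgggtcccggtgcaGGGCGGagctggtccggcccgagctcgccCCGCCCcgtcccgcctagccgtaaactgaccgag
Itgb8: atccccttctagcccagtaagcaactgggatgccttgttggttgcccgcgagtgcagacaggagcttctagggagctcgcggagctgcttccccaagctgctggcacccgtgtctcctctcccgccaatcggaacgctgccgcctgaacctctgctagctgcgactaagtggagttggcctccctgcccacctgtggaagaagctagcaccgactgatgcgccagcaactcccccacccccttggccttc

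The window of Itgb1 held 1 GC box, that of Itgb5 held 3 and that of Itgb8 held none. Of all 32851 promoter windows of this length in the table, 32.7% held at least 1 on either strand. Among the measured genes with a promoter, 18 of 29 held one, against 35.4% of all genes in that table. G and C made up 68.0% of the Itgb1 window, 65.2% of that of Itgb5 and 62.4% of that of Itgb8, with a median of 52.4% over all windows. A match is a description of these letters and not evidence of binding.

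The collagen-binding subunits were split. Itga1, whose product with beta1 binds collagen IV, had signals of 91.20 and 46.19, 1.97-fold lower and just within 2-fold. Its second probe set was dim and went the other way, at 0.90, and the mean of both was -0.041. Itga10 was nearly equal on both arrays (76.29 and 75.57), and Itga2, the collagen receptor chain of platelets and epithelia, was under the median on both (33.99 and 40.19).

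Among the laminin-binding subunits, Itga6 and Itgb4 were higher and Itga7 was lower. Itga6 and Itgb4 encode the pair that anchors hemidesmosomes in epithelia, and Itga6 also pairs with Itgb1. Itga6 had signals of 368.34 and 507.37, 1.38-fold higher, and 0.66 at its other bright probe set. Itgb4 had signals of 18.08 and 46.07, a log2 ratio of 1.35, but both values were under the median of the array, and the log2 ratio was 0.73 with the offset. Of 12 keratinocyte and epithelium markers, 2 were higher by 2-fold or more as well, against 1.59% of all named genes. These were the desmosome gene Dsp (39.30 and 319.21) and the keratin gene Krt18 (126.94 and 298.63). The basal keratin genes Krt5 and Krt14 and the epithelial cadherin gene Cdh1 had signals under the median on both arrays. Epcam was bright and lower, within 2-fold, at its brightest probe set (147.65 and 103.10), but its other probe set had a log2 ratio of 0.25. The summed signal of the 12 markers was 740.0 on the control array and 1141 on the other, and that of the 10 without Dsp and Krt18 was 573.7 and 523.0. Their part in the values of Itga6 and Itgb4 was not tested. Itga7, the laminin receptor chain of muscle, had signals of 74.29 and 41.39, 1.79-fold lower with a single probe set. Of 9 skeletal muscle markers 2 were past 2-fold and both higher, namely Chrna1 (39.66 and 418.27) and Tnnt2 (59.74 and 250.21). The 3 probe sets of Tnnt2 had log2 ratios from -0.34 to 2.07, with a mean of 1.22. Over all named genes, 1.59% were higher at this threshold. The summed signal of the list was 1081 and 1903. Across these markers 5 had log2 ratios above 0 and 4 below, among the latter the bright Myod1 (59.81 and 35.33). Their part in the value of Itga7 was not tested. Itga3 stayed nearly equal (103.02 and 104.11).

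The alpha4 and alpha9 chains bind fibronectin splice forms, VCAM1 and tenascin. Itga4 had signals of 201.73 and 211.90, a log2 ratio of 0.071. Itga9 was 1.45-fold lower (129.80 and 89.23), and its other bright probe set was past 2-fold, at -1.35. Itgb7, a partner of Itga4 in lymphocytes, had signals of 141.77 and 118.88. Of 12 leukocyte markers, 8 were bright, as were 12319 of 18193 named genes. Among the bright markers were the macrophage genes Lyz2 (724.68 and 526.64) and Csf1r (174.17 and 141.55). Cd68 (108.03 and 274.59) and Cd14 (95.25 and 225.40) were past 2-fold and higher, and none was 2-fold lower. Over all named genes, 1.59% were higher and 3.85% lower by 2-fold. The summed signal of the list was 1688 and 1646. The pan-leukocyte gene Ptprc and the leukocyte integrin chains Itgb2 and Itgam were under the median on both arrays. The part of such cells in the values of Itga4 and Itgb7 was not tested.

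**Figure D2:**
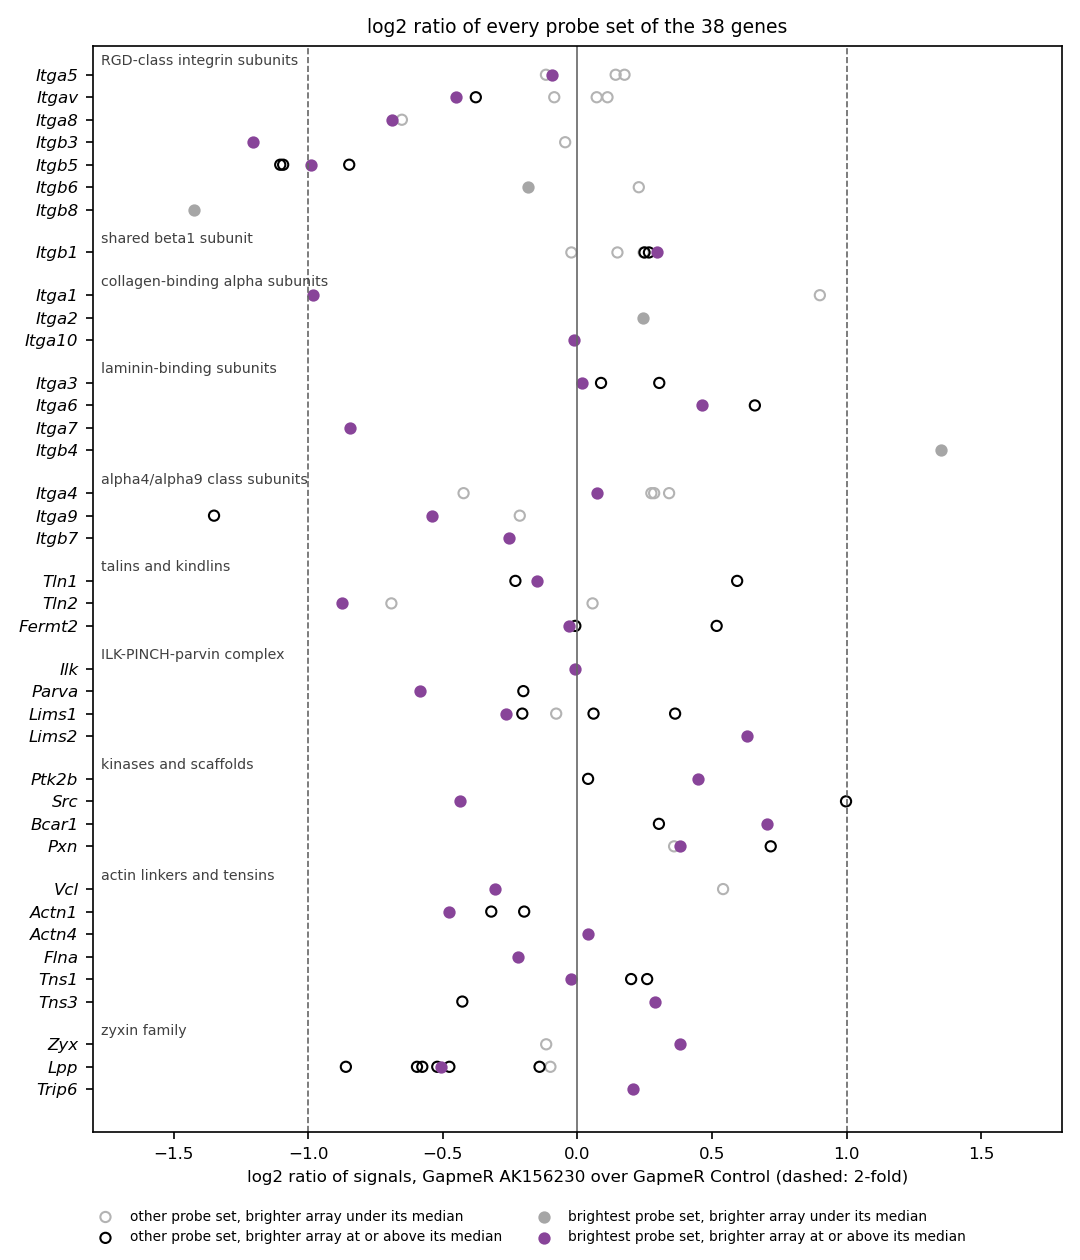
Log2 ratio of signals, GapmeR AK156230 over GapmeR Control, for each of the 96 probe sets of the 38 genes. Filled points are the brightest probe set of a gene, open points the others, grey marks probe sets under the median on the brighter array, and dashed lines lie at 2-fold. The 4 probe sets of Itgb5 lie between -1.10 and -0.85, while those of Src lie on both sides of 0.

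Inside the cell, talin and kindlin switch integrins to their active shape. Tln1, the ubiquitous talin gene, had signals of 988.93 and 891.79, a log2 ratio of -0.15. Tln2, the second talin gene, had signals of 289.36 and 157.61, 1.84-fold lower. A dim probe set of Tln2 was at 0.056, and the mean of its 3 probe sets, -0.50, was within 1.5-fold. Its log2 ratio was 0.73 below that of Tln1, and between 0.58 and 0.74 below it over the alternatives tried. Fermt2, which encodes the kindlin of fibroblasts, had signals of 1580.65 and 1545.47, and a second bright probe set was at 0.52.

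The complex of ILK, PINCH and parvin connects beta tails to actin. Ilk was equal within 1% on both arrays (1062.76 and 1057.10, 1.01-fold). Lims1, which encodes PINCH1, had signals of 998.71 and 830.76, a log2 ratio of -0.27 with bright probe sets on both sides of 0. Lims2, its paralogue PINCH2, had signals of 82.43 and 127.62, 1.55-fold higher. Parva, which encodes alpha-parvin, had signals of 658.99 and 438.76, a log2 ratio of -0.59 just past 1.5-fold that became -0.48 with both arrays scaled to the same median, and its other bright probe set was at -0.20. Parvb, which encodes beta-parvin, went the other way with signals of 62.56 and 147.30, 2.35-fold higher, although a second probe set was at 0.22 and the mean of both was 0.73. The log2 ratio of Parvb was 1.82 above that of Parva, and at least 1.12 above it in each alternative tried.

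The scaffold genes had log2 ratios above 0. Bcar1, which encodes p130Cas, a scaffold phosphorylated by FAK and Src when cells spread, had signals of 553.83 and 901.10, 1.63-fold higher, and 0.30 at its other bright probe set. Of the named genes at or above the median signal, 4.24% had a log2 ratio at least as high as that of Bcar1. Pxn, which encodes paxillin, had signals of 727.20 and 947.74, 1.30-fold higher, and its 3 probe sets ranged from 0.36 to 0.72. Ptk2b, which encodes the FAK relative PYK2, had signals of 78.58 and 107.08, 1.36-fold higher, and 0.039 at its second probe set. Src was not resolved by its probe sets. The brightest had signals of 344.94 and 254.65, a log2 ratio of -0.44, and the other went the opposite way with signals of 142.46 and 284.46.

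The genes that join the plaque to actin were bright and differed little. Vcl, which encodes vinculin, had signals of 2554.83 and 2067.82, 1.24-fold lower, although a dim second probe set was at 0.54 and the mean of both at 0.12. Actn1 was 1.39-fold lower (3250.27 and 2332.92), with 3 bright probe sets from -0.48 to -0.20, whereas its paralogue Actn4 was nearly equal (2204.39 and 2265.50). Flna, which encodes filamin A, had signals of 1826.38 and 1569.00, a log2 ratio of -0.22. The tensin gene Tns1 was nearly equal (720.23 and 709.06), and Tns3 was 1.22-fold higher (1982.57 and 2422.51), with -0.43 at a second probe set. None of the 6 genes of this group was past 1.5-fold.

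The zyxin family of LIM proteins collects on actin fibres under tension. Zyx had signals of 1209.17 and 1574.00, 1.30-fold higher, and Trip6 had signals of 841.56 and 970.65, 1.15-fold higher. Lpp had signals of 1759.51 and 1238.56, 1.42-fold lower, and all 8 of its probe sets were below 0, from -0.86 to -0.10. Zyx was 0.89 above Lpp on the log2 scale, and between 0.60 and 0.98 above it over the alternatives tried.

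Vcl is also a known target of SRF, a factor that responds to actin through the CArG box. The 250 bases before its start (GRCm38.p6, chr14:20929148-20929397, plus strand, 5′ to 3′) are shown because they hold such a box, in capitals.
Vcl: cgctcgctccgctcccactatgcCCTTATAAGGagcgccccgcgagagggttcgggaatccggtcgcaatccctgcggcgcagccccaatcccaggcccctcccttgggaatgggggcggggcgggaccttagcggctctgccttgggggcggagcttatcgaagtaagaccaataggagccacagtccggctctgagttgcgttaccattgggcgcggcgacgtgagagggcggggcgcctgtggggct

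A CArG box on either strand was found in the windows of Vcl, Fermt2 and Itgb6 among 29 genes, and in 1.62% of all genes in the promoter table. The box of Vcl starts 227 bases before the start used in that table and that of Fermt2, CCATAAAAGG, 204 bases before it. In Itgb6 the box lies in the window of an internal start. Vcl and Fermt2 had log2 ratios of -0.31 and -0.032, and Itgb6 was dim. Of 7 smooth muscle markers, none was past 2-fold. Their log2 ratios ran from -0.74 for Mylk to 0.34 for Lmod1, with a median of 0.030. Near 0 were the contractile genes Acta2 (7269.94 and 6836.81) and Tagln (5330.32 and 5442.57).

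Long genes were more often lower on these arrays, and integrin and focal adhesion genes are long. The 34 genes at or above the median signal had a median genomic span of 70.3 kb, against 22.5 kb for all named genes at that brightness. Of 779 bright named genes over 160 kb, 25.4% were lower by 2-fold or more, with a median log2 ratio of -0.43. None of the 7 members of that length was lower by 2-fold, and 3 of the 7 were lower by 1.5-fold, against 39.4% of bright genes in the class. These 7 genes, Itga8, Itga9, Tln2, Parva, Tns1, Tns3 and Lpp, had a median log2 ratio of -0.54, from -0.88 to 0.29. In the class from 80 to 160 kb, 7 bright genes that include Itgb5, Itga1 and Itgav had a median of -0.45, against -0.18 for all 1277 bright genes. In the class from 40 to 80 kb, 8 bright genes had a median of 0.055, against -0.087 for all 1932 bright genes. The 12 bright genes up to 40 kb had a median of -0.011, against -0.012 for all 8315 bright genes. Itga7, at 24.9 kb, was the only one of these 12 lower by 1.5-fold. These classes leave out the dim genes, namely Itgb8 (75.5 kb, log2 ratio -1.42), Itgb4 (33.7 kb, 1.35), Itga2 and Itgb6. The part of gene length in the values of Itgb5, Itga1, Tln2, Itga8 and Parva was not tested.

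**Figure D3:**
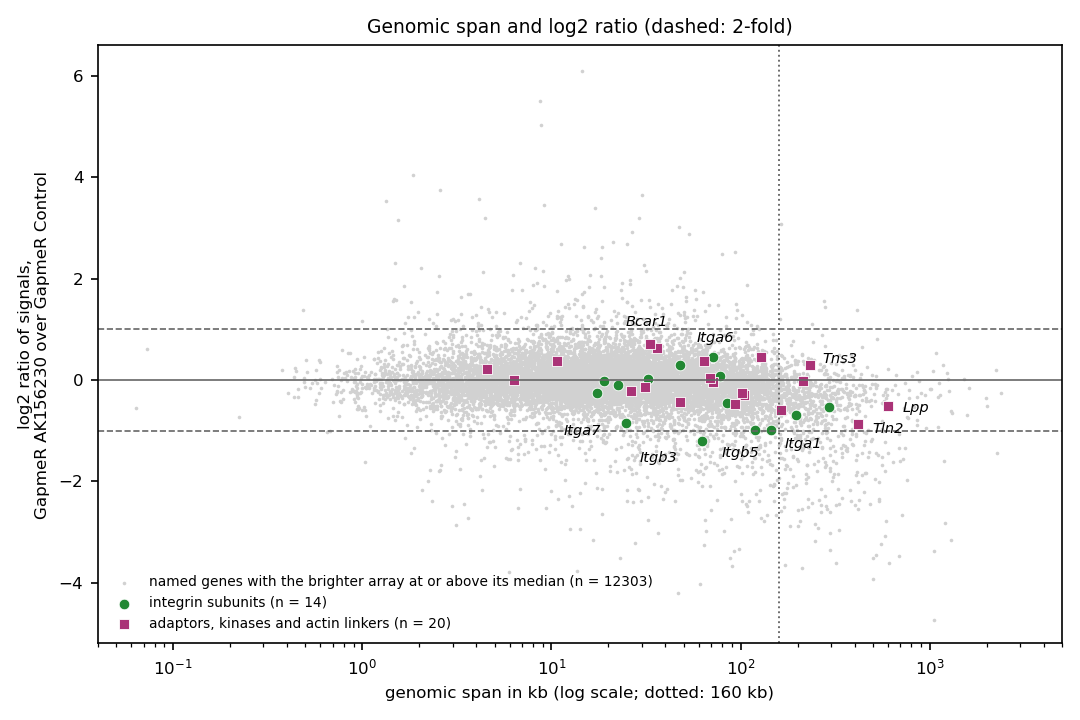
Log2 ratio of signals, GapmeR AK156230 over GapmeR Control, against genomic span in kb on a log scale. Only genes at or above the median signal are shown, as named genes (grey), integrin subunits (circles) and adaptors, kinases and actin linkers (squares). Dashed lines lie at 2-fold and the dotted line at 160 kb, beyond which the 7 focal adhesion genes lie between -0.88 and 0.29.

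Other components of the adhesion plaque resembled the genes above. Of 68 further plaque genes measured, 2 were at least 2-fold higher and 3 at least 2-fold lower, with a median log2 ratio of -0.072. These counts were 2.94% and 4.41% of the list, against 1.59% and 3.85% of all named genes. The higher genes were Parvb and Synm, which encodes the intermediate filament protein synemin (51.47 and 153.69, with 0.16 at its second probe set and a mean of 0.87). The lower genes were Dock1, Asap2 and Svil, with genomic spans of 503 kb, 159 kb and 199 kb. The part of gene length in their values was not tested. Dock1, a Rac activator that acts with Crk and p130Cas, was 15.3-fold lower (710.02 and 46.42) at its brightest probe set, with -0.14 at the other. Asap2, a regulator of Arf GTPases, was 2.44-fold lower at its brightest probe set and lower still at the other (-1.34). Svil, which encodes supervillin, was 2.23-fold lower (641.46 and 287.48), with -0.50 at its second probe set and a mean of -0.83. Just within 2-fold was Itgb1bp1, which encodes ICAP1, a protein that binds the tail of beta1 and holds it inactive, with signals of 666.99 and 347.55, 1.92-fold lower.

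More of the matrix ligands of these receptors were past 2-fold, 25.8% being lower. Of 31 ligand genes measured, 8 were at least 2-fold lower and 2 at least 2-fold higher, against 3.85% and 1.59% of all named genes. The median log2 ratio of the ligands was -0.34. By brightest probe set, the largest differences among the bright ligands were in Edil3, Tgfbi, Col6a2 and Col6a1, whereas by the mean of probe sets Col3a1 came first, at -2.34. Edil3, a secreted RGD protein that binds alphav integrins, was 11.4-fold lower (237.39 and 20.86), but its 6 probe sets reached 0.20 and their mean was -0.98. Tgfbi, which encodes a secreted adhesion protein, was 5.21-fold lower (562.67 and 107.99), and -0.72 without its _s_at and _x_at probe sets. The collagen VI chains Col6a1 and Col6a2 were 3.55-fold and 3.58-fold lower. Lama2 and Lamc1, chains of the laminins bound by alpha7 and alpha6, were 3.08-fold and 2.32-fold lower, but the mean of both probe sets of Lamc1 was -0.81. Col3a1 and Thbs2 were 2.95-fold and 2.51-fold lower. Edil3 and Lama2 have genomic spans of 502 kb and 636 kb. Among the other lower ligands Lamc1 spans 114 kb and the rest 38.2 kb or less. The part of gene length in the values of the ligands was not tested. The higher genes were Icam1, a ligand of leukocyte integrins (199.45 and 403.94), and the dim Lama3. Fn1, which encodes fibronectin, had signals of 6210.36 and 4919.82, 1.26-fold lower, and Vtn, which encodes vitronectin, was under the median on both arrays. The ligand list shares Col1a1, Col1a2, Col3a1 and Fn1 with the fibroblast markers, of which 6 of 15 were lower by 2-fold or more with a summed signal of 45890 and 31317. Those were Fap, Pdgfra, Col5a1, Col3a1, Pdgfrb and Lum, while Vim, Dcn and S100a4 had log2 ratios of -0.087, 0.060 and -0.022. Their part in the values of the integrin genes was not tested.

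**Figure D4:**
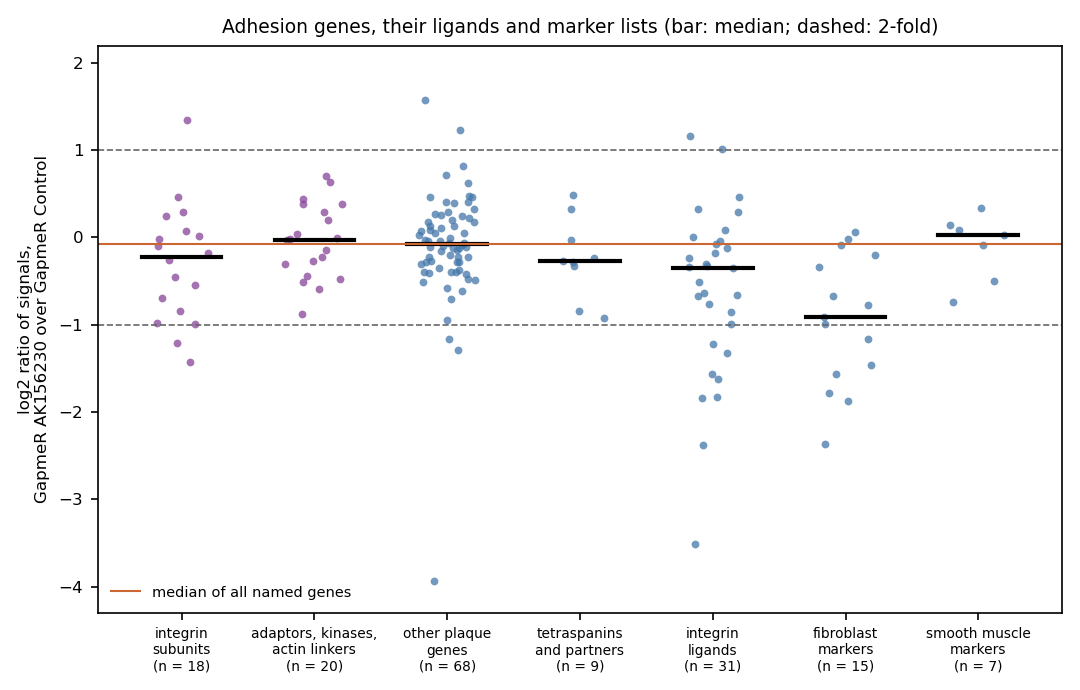
Log2 ratio of signals, GapmeR AK156230 over GapmeR Control, by gene for the integrin subunits, the plaque genes, other plaque genes, tetraspanins and partners, integrin ligands, fibroblast markers and smooth muscle markers. A black bar marks each median, the line the median of all named genes (-0.074), and dashed lines 2-fold; the medians of the ligands and the fibroblast markers lie at -0.34 and -0.91.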

How the data were processed

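The authors hybridized 1 Affymetrix array per condition and deposited MAS5 signal intensity values on a linear scale, for which the sources used here state neither a version nor a scaling target. There were 45037 probe sets, without detection calls. A porcine array is named in the methods, but the labels give mouse RNA and the probe sets match the mouse annotation, which was used. Of the probe sets, 34945 had 1 gene, 932 several and 9160 none listed. Symbols were updated through the Entrez ID for 34741, and spans came from RefSeq genes of GRCm38.p6. Each gene was represented by its probe set of highest mean log2 signal over both arrays, called its brightest. Log2 ratios were taken as deposited, with no offset and no test, because SAM, which the methods name, needs replicate arrays. The genes, lists and pairs compared were chosen with earlier results of these data known. All genes of the list could be named. From the other pathway lists those past 2-fold at or above the median signal were named, marker lists were given by counts and sums, and further genes and markers were named after their values were seen. The alternatives were 3 other scalings, an offset, 2 limits on signal, thresholds of 1.5-fold and 3-fold and 2 choices of probe set. Scripts were tested on simulated data. Python 3.11.15, numpy 2.4.6, pandas 2.3.3, scipy 1.17.1, statsmodels 0.14.6 and matplotlib 3.10.9 were used. Promoter windows were from RefSeq. The number of arrays limits the precision.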

Additional observations from a re-analysis of the deposited data

How the results depend on the processing

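Counts at 2-fold were sensitive to dim signals. With an offset of 24.3 no listed gene was higher and none was lower by 2-fold (0 and 0). Among genes at or above the median signal 0 were higher and 1 was lower. At 1.5-fold 3 listed genes were higher and 8 lower, with 6 other plaque genes and 14 ligands lower, and 42.9% of the listed genes over 160 kb. At 3-fold the counts were 0 higher and 0 lower, 1 other plaque gene and 5 ligands. The other scalings and choices of probe set kept these counts within 1.5 times. The medians moved by less than 0.28 in each alternative tried, but they were themselves closer to 0 than this, and signs changed. With the mean of probe sets, the median of the listed genes went from -0.12 to 0.025. That of the adaptor, kinase and actin-linking genes went from -0.028 to 0.095. Scaling both arrays to the same median moved the median of all genes by 0.11. Of 228 log2 ratios of single genes under the alternatives that can alter a ratio, which the limits on signal cannot, 215 moved by less than 0.28 and 13 by more, 7 of them with the mean of all probe sets. Below 0 in every setting were 15 genes, above 0 were 13, and 10 had both signs. Itgb5 was past 2-fold with the mean of its probe sets (-1.01) and without its _x_at probe sets (-1.09). No paired analysis was possible because each condition had 1 array. The cause of these shifts was not tested. Without detection calls, signals under the array median may be background.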

Other observations

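Membrane partners of integrins, which the report does not describe, lay within 2-fold in each of the 9 genes measured by brightest probe set, with a median log2 ratio of -0.27. Cd47, which encodes the integrin-associated protein CD47, was closest to the threshold, at 976.58 on the control array and 515.40 on the other, 1.89-fold lower, and its probe sets ranged from -1.89 to -0.40 with a mean of -1.08, past 2-fold. Emp2, a tetraspan membrane protein gene, had signals of 703.95 and 391.61, a log2 ratio of -0.85. The tetraspanin Cd151, a partner of laminin-binding integrins, was 1.40-fold higher at its brightest probe set (883.73 and 1240.26), but another probe set was at -0.79. Cd9 and Cd81 had log2 ratios of -0.27 and -0.24.

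Of 8 endothelium markers, Kdr was past 2-fold, with signals of 44.54 and 90.91. Of 8 further integrin or integrin-related genes, Itgbl1 was past 2-fold. It encodes a secreted protein that resembles the stalk of beta subunits and has no transmembrane part, and it was 5.50-fold lower with a single probe set (482.12 and 87.66). Its genomic span is 319 kb. The others, Itga2b, Itgae, Itgal, Itgam, Itgax, Itgb2 and Itgb2l, had log2 ratios from -0.92 to 0.30.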
